A study of Mus musculus with 7 samples.

Results

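Activity-regulated immediate early genes are genes whose transcription starts within minutes of a stimulus and needs no new protein. The 40 genes described here were listed by name, from what they are known to do, at a time when earlier results of these data were known. They were 20 transcription factors and 20 effectors. The effectors hold genes of signalling and the synapse, and also nuclear regulators and growth arrest genes. The classes split the genes by kind of protein, and speed of induction was not measured. All 40 were found by symbol among the 25467 genes of the count table, and all 40 had enough reads to be tested. RNA came from the mPFC (medial prefrontal cortex, at the midline of the frontal lobe) of 7 mice and was sequenced in bulk. In 4 mice, labelled rhTSP1 and called TSP1 here, the treatment was recombinant human thrombospondin-1, a matrix glycoprotein that astrocytes secrete. The other 3 mice, labelled PBS, had phosphate-buffered saline. The labels state no strain, sex, age, dose, route, handling or time between treatment and dissection.

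In neurons, calcium that enters through NMDA receptors and voltage-gated channels activates kinases, and these switch on the factors CREB and SRF that already sit at the promoters of immediate early genes. Among the first proteins made are transcription factors of the AP-1, Egr and Nr4a families. They act on late response genes, while effectors such as Arc, Homer1 and the dual-specificity phosphatases act on synapses and damp the signal. In cortex, transcripts of this kind are used as a mark of recent neuronal activity, and several of them also respond to growth factors, stress or injury in glia and blood vessels.

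Each library held between 15090336 and 20755167 counts, and a member had between 6 and 6925 counts in a library. Values are CPM, read counts scaled to a common library total and corrected for library composition. Excitatory neuron markers such as Slc17a7, the vesicular glutamate transporter of cortex, were abundant in every library, with a summed level of 2604 to 3090 CPM over 6 genes with TSP1 and 2610 to 3326 CPM with PBS. TSP1 replicate 4 stood apart from the other libraries, because its 10 markers of striatal projection neurons summed to 625 CPM and its 7 oligodendrocyte markers to 8112 CPM. The other TSP1 libraries had 255 to 272 CPM and 2971 to 4150 CPM of these markers, and the PBS libraries had 240 to 264 CPM and 4438 to 5552 CPM. Microglia markers (8 genes) summed to 395 to 499 CPM with TSP1 and 506 to 573 CPM with PBS, and endothelial markers (8 genes) to 224 to 279 CPM with TSP1 and 287 to 356 CPM with PBS. Markers of oligodendrocyte precursors (5 genes) also did not overlap, at 219 to 238 CPM with TSP1 and 251 to 280 CPM with PBS. Mitochondrial genes took 4.70% to 5.996% of counts with TSP1 and 6.24% to 6.58% with PBS. Blood markers (5 genes) summed to 342 CPM in TSP1 replicate 3, to 43.5 to 82.3 CPM in the other TSP1 libraries and to 84.1 to 123 CPM with PBS. In bulk tissue, fewer cells of a type and less RNA per cell cannot be told apart.

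Across the 40 genes the fitted differences between the 2 groups were small, and higher ones in Egr2, Dusp5 and Tiparp were the steadiest across analyses. With edgeR's quasi-likelihood fit, 0 of the 40 genes had a Benjamini-Hochberg adjusted p (FDR) under 0.05, as had 0 of all 17211 genes tested (0%). DESeq2 called 86 of all genes and limma-voom 0, and neither called any of the 40. At an unadjusted p under 0.05, 9 of the 40 (22.5%) had higher fitted values with TSP1, against 4.21% of all genes. Only Atf3, 1 of the 40 (2.5%), was lower at that threshold, against 5.44% of all genes. Fitted log2 fold changes were above 0 in 24 of the 40 genes (60%), against 51.1% of all genes, and below 0 in 16, against 48.9% of all genes. At that p in both directions together these were 25% of the 40 and 9.65% of all genes. The count of higher genes rested on single libraries, and it was 3 without PBS replicate 3 and 5 without TSP1 replicate 4, where 3.01% and 4.33% of all genes were higher. Egr2, Dusp5 and Tiparp kept an unadjusted p under 0.05 in each of the 14 alternative analyses, which all draw on the same 7 libraries. The share of all genes that did so was not computed. The values of TSP1 and PBS libraries did not overlap in 5 of the 40 genes (12.5%), against 10.1% of all genes. These were Egr2, Dusp5 and Tiparp, higher with TSP1 (7.5%, against 4.83% of all genes), and Maff and Atf3, lower with TSP1 (5%, against 5.26%).

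**Figure D1:**
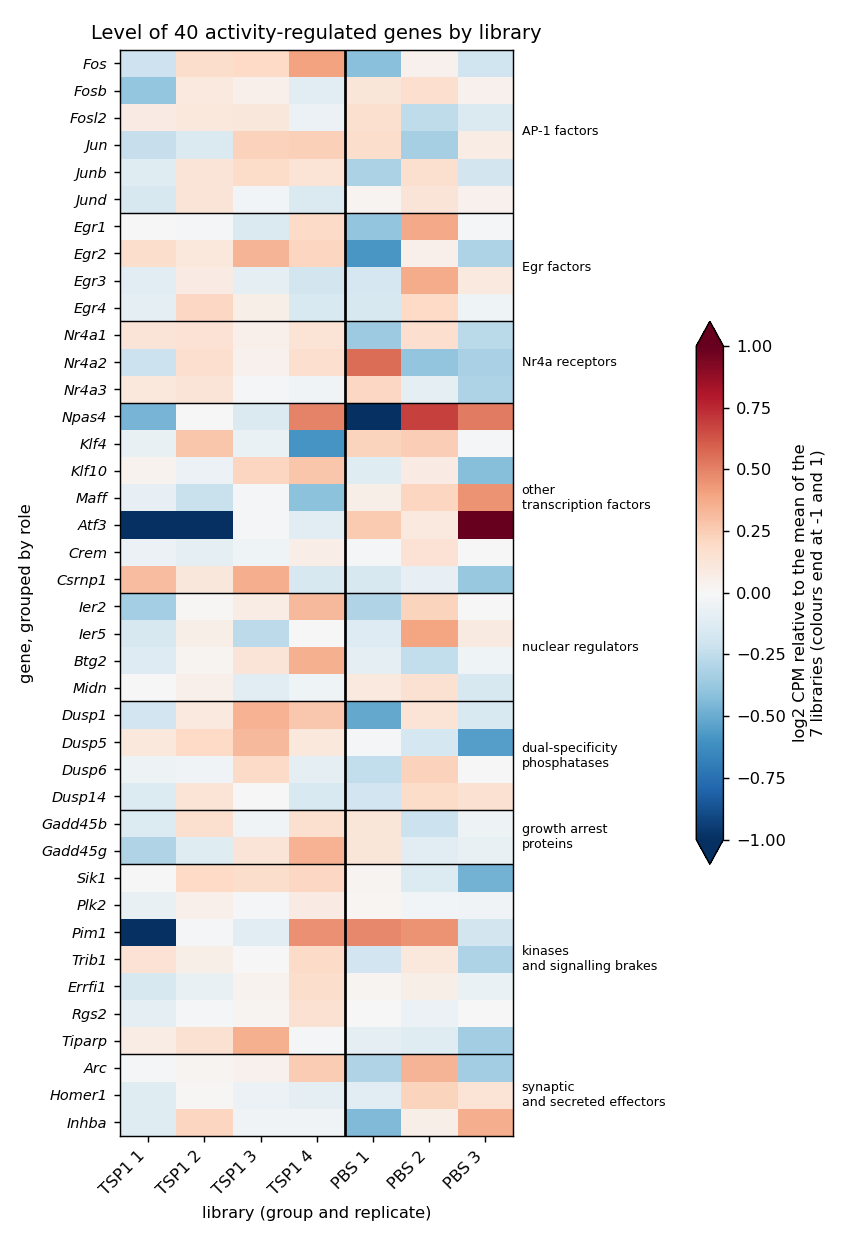
Level of each of the 40 genes in each library, as log2 CPM relative to the mean of the 7 libraries, with TSP1 libraries left of the line, PBS libraries right of it and genes grouped by role. The darkest cells are those of Npas4 (15.7 CPM in PBS replicate 1 and 54.0 CPM in PBS replicate 2), Atf3 and Pim1, while most other cells are pale.

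The difference between the groups was small in the transcription factors and in the effectors. The median fitted log2 fold change was 0.01 over the 20 transcription factors and 0.05 over the 20 effectors, against 0.00 over all genes tested. Of the transcription factors 11 had fitted values above 0 and 9 below, and of the effectors 13 were above and 7 below. The mean of the transcription factors, as log2 CPM relative to the mean of the 7 libraries, was -0.13, 0.02, 0.06 and 0.02 in TSP1 replicates 1 to 4, and -0.10, 0.10 and 0.03 in PBS replicates 1 to 3. For the effectors the same mean was -0.13, 0.06, 0.06 and 0.13 in the TSP1 libraries, and -0.09, 0.07 and -0.10 in the PBS libraries. In both classes TSP1 replicate 1 and PBS replicate 1 were low and PBS replicate 2 was high, and the groups overlapped. TSP1 replicate 4 was high and PBS replicate 3 low in the effectors alone. The difference between the classes, transcription factors minus effectors, was 0.01, -0.04, 0.00 and -0.11 in the TSP1 libraries and -0.02, 0.02 and 0.13 in the PBS libraries, and these also overlapped. The widest gaps, in TSP1 replicate 4 and PBS replicate 3, pointed in opposite directions.

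**Figure D2:**
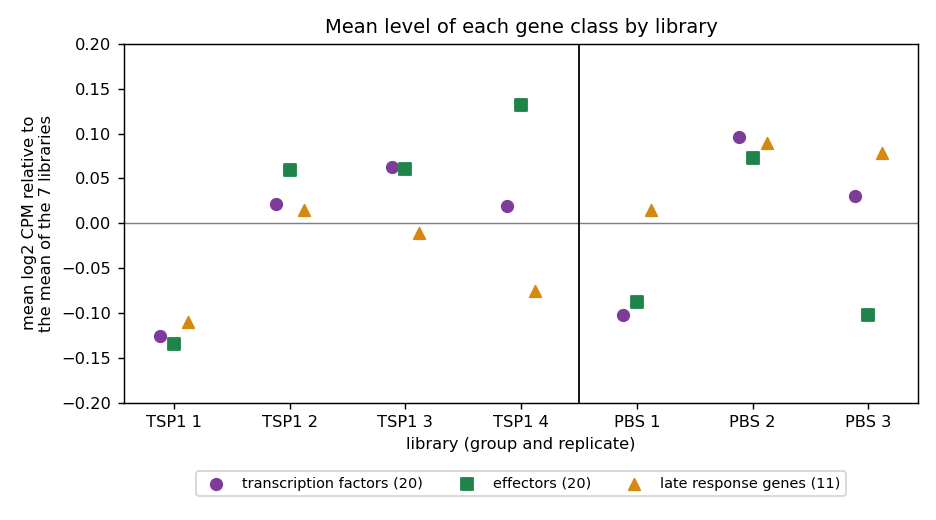
Mean log2 CPM of the 20 transcription factors, the 20 effectors and 11 genes listed by name as late response genes in each library, relative to the mean of the 7 libraries. The transcription factors and effectors overlap between groups. The late response genes run from -0.111 to 0.0146 in the TSP1 libraries and from 0.0143 to 0.0892 in the PBS libraries. These ranges overlap narrowly.

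Per length of transcript, Arc and Egr1 were the most abundant of the 40 genes. Arc, whose protein forms capsid-like shells and promotes the removal of AMPA receptors from synapses, had a mean of 91.1 CPM per kilobase of exon with TSP1 and 82.3 with PBS. Egr1, a zinc finger factor, had 71.0 CPM per kilobase with TSP1 and 71.6 with PBS. Next, between 36.5 and 39.5 CPM per kilobase over all libraries, came Nr4a1, Jund, Plk2 and Junb, which do not differ in order beyond their spread. At the other end were Klf4 at 2.09, Pim1 and Inhba at 0.87 each, Maff at 0.74 and Atf3 at 0.62 CPM per kilobase. Atf3, Maff and Pim1 had fewer than 30 counts in at least 1 library, so counting error weighs most on these 3 genes.

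Among the AP-1 factors, the leucine zipper proteins that pair to bind AP-1 sites, Fos had the smallest p. Fos had 24.6, 32.1, 32.6 and 37.4 CPM in TSP1 replicates 1 to 4, against 21.3, 29.3 and 24.7 CPM in PBS replicates 1 to 3. TSP1 replicate 1 lay within the range of the PBS libraries and the other TSP1 libraries lay above it. The log2 fold change of Fos was 0.34 (SE 0.14, edgeR adjusted p = 0.479), and it was 0.23 without PBS replicate 1 and 0.26 without TSP1 replicate 4. Junb, a partner of Fos, had 76.7, 91.3, 94.4 and 91.8 CPM with TSP1, against 67.0, 92.8 and 73.5 CPM with PBS (0.19 as log2 fold change with SE 0.11, edgeR adjusted p = 0.624). Its highest PBS value, in replicate 2, lay inside the TSP1 range. The log2 fold change of Junb was 0.09 without PBS replicate 1, 0.34 without PBS replicate 2 and 0.29 with length and GC offsets, and its unadjusted p was under 0.05 in the last 2 of these. The exons of Junb share 173 bases with Prdx2 on the opposite strand, and since no source states how strand was treated in the counting, reads of the 2 genes may mix. Jun, the most widely used Fos partner, had 39.4, 41.9, 54.3 and 54.5 CPM with TSP1, against 52.3, 36.7 and 48.8 CPM with PBS. Its log2 fold change, 0.05 with SE 0.16, turned sign when single libraries were left out. Fosb, which also gives the long-lived truncated protein delta-FosB, had 17.1, 24.0, 23.2 and 20.8 CPM with TSP1, against 24.4, 25.2 and 23.1 CPM with PBS (-0.18 as log2 fold change with SE 0.11, edgeR adjusted p = 0.621). Without TSP1 replicate 1 it was -0.09, and without TSP1 replicate 2 it was -0.24, with an unadjusted p under 0.05. Fosl2 and Jund, of the same family, had log2 fold changes of 0.13 and -0.11, with SEs of 0.09 and 0.08, and 877 bases of Jund (52.6% of its exons) lie opposite Gm11175, so its reads are uncertain in origin.

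Of the Egr zinc finger factors, Egr2 had the largest fold change of all 40 genes above 0, while Egr1, Egr3 and Egr4 lay at or below 0.01. Egr2, known for its part in myelination by Schwann cells and induced by activity in cortical neurons, had 14.8, 14.04, 16.6 and 15.2 CPM with TSP1, against 8.74, 13.5 and 10.6 CPM with PBS. Every TSP1 library lay above every PBS library. The means were 15.1 ± 1.06 CPM with TSP1 (SD, n = 4) and 11.0 ± 2.42 CPM with PBS (SD, n = 3). The fitted fold was 1.39, a log2 fold change of 0.47 (SE 0.13, edgeR adjusted p = 0.288), and it was 0.33 without PBS replicate 1 and 0.66 without PBS replicate 2. Egr1, whose induction is widely used to map active neurons, had 315, 313, 285 and 360 CPM with TSP1, against 240, 409 and 314 CPM with PBS. All TSP1 values lay between the lowest and the highest PBS value, and the log2 fold change was -0.01 (SE 0.17). Egr4 had 45.6, 56.4, 50.8 and 43.9 CPM with TSP1, against 43.7, 56.0 and 47.6 CPM with PBS (log2 fold change 0.01, SE 0.10). With length and GC offsets the log2 fold change of Egr4 was 0.16, with an unadjusted p under 0.05 in this 1 of the 14 alternative analyses. Egr3 had a log2 fold change of -0.19 (SE 0.11), with its highest value, 100.2 CPM, in PBS replicate 2.

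**Figure D3:**
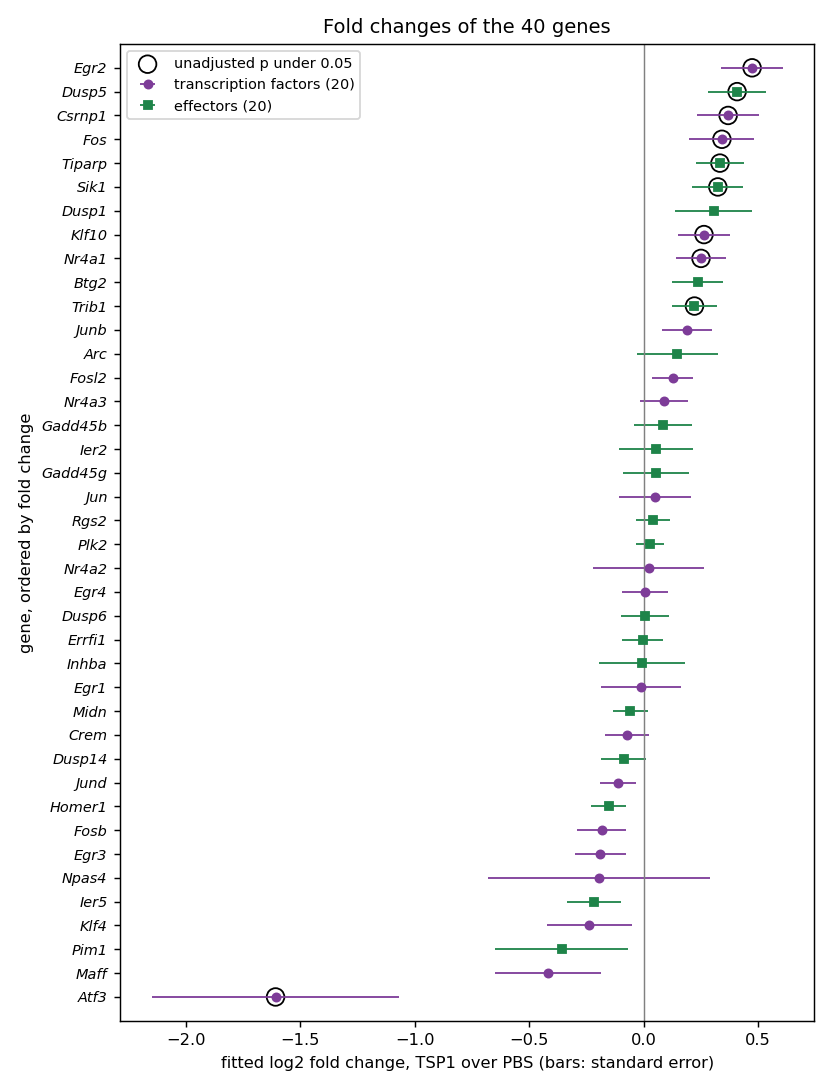
Fitted log2 fold change of each gene, TSP1 over PBS, with its standard error, for transcription factors (circles) and effectors (squares). Rings mark the 10 genes with an unadjusted p under 0.05, of which Atf3 at -1.61 is the one below 0, and both classes are spread along the order.

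The Nr4a genes encode orphan nuclear receptors. Nr4a1 had 151, 152, 142 and 151 CPM with TSP1, against 107, 155 and 114 CPM with PBS. The TSP1 libraries were close together, and PBS replicate 2 lay above all of them. The log2 fold change of Nr4a1 was 0.25 (SE 0.11, edgeR adjusted p = 0.494), and it was 0.15 without PBS replicate 1 and 0.44 without PBS replicate 2. Nr4a2, needed for dopamine neurons, and Nr4a3 lay at log2 fold changes of 0.02 (SE 0.24) and 0.09 (SE 0.10). Nr4a2 went against Nr4a1 within the PBS group, since PBS replicate 1 had the highest Nr4a2 value of all libraries, 27.3 CPM, against 14.1 and 14.9 CPM in PBS replicates 2 and 3.

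Npas4, a factor that calcium entry induces in neurons and that shapes inhibitory synapses, varied more between PBS mice than between the groups. It had 24.3, 33.7, 30.3 and 47.4 CPM with TSP1, against 15.7, 54.0 and 48.0 CPM with PBS. The highest PBS value was 3.44 times the lowest, and the TSP1 libraries lay between them. The log2 fold change of Npas4 was -0.20 (SE 0.48, edgeR adjusted p = 0.939), and it was -0.59 without PBS replicate 1 and 0.12 without PBS replicate 2.

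The remaining transcription factors went both ways. Klf10, a zinc finger gene first found as a target of TGF-beta, had 34.04, 32.0, 38.6 and 40.3 CPM with TSP1, against 30.5, 35.2 and 24.8 CPM with PBS (0.26 as log2 fold change with SE 0.12, edgeR adjusted p = 0.492). It was 0.15 without PBS replicate 3. Csrnp1, a nuclear factor gene induced by Axin, had 14.8, 12.9, 15.3 and 10.7 CPM with TSP1, against 10.7, 11.2 and 9.17 CPM with PBS (0.37 as log2 fold change with SE 0.13, edgeR adjusted p = 0.402). TSP1 replicate 4 was the one TSP1 library inside the PBS range of Csrnp1.

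Atf3 and Maff were the lowest of the 40 genes in fold change and in level. Atf3, a stress and injury factor, had 6, 9, 18 and 17 counts in TSP1 replicates 1 to 4, against 25, 18 and 71 counts in PBS replicates 1 to 3. In CPM these were 0.40, 0.48, 0.99 and 0.93 with TSP1 and 1.19, 1.06 and 4.34 with PBS. PBS replicate 3 was far above the other PBS libraries, which lay just above the TSP1 range. The log2 fold change of Atf3 was -1.61 (SE 0.54, with an edgeR adjusted p = 0.398) and -0.67 without PBS replicate 3, where its unadjusted p no longer passed 0.05. Maff, a small Maf protein without an activation domain, had 1.78, 1.61, 1.87 and 1.417 CPM with TSP1, against 1.96, 2.19 and 2.57 CPM with PBS (-0.42 as log2 fold change with SE 0.23, edgeR adjusted p = 0.602). Microglia and endothelial markers were lower with TSP1 in the summed levels given above, and their part in the values of Atf3 and Maff was not tested. Klf4, a factor of endothelium and stem cells, and Crem, a CREB relative, lay at log2 fold changes of -0.24 (SE 0.18) and -0.07 (SE 0.10).

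**Figure D4:**
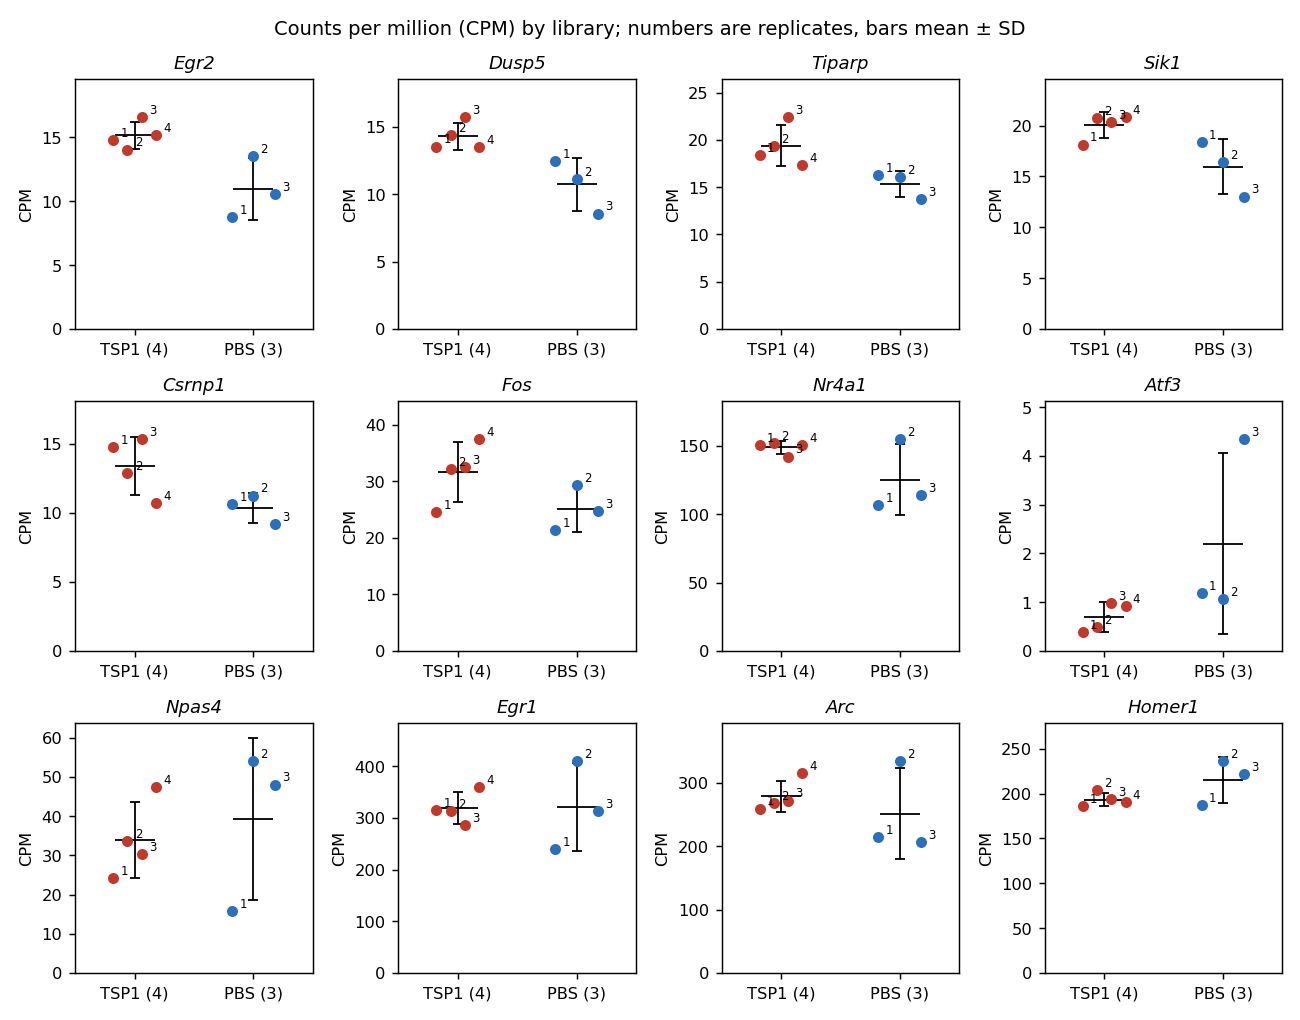
CPM of 12 of the genes in each library, TSP1 left and PBS right, with replicate numbers beside the points and bars for the mean ± SD. The TSP1 and PBS points of Egr2, Dusp5, Tiparp and Atf3 do not overlap, and the PBS points of Npas4, Egr1 and Arc span the TSP1 points.

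Among the effectors, Dusp5 had the largest fold change above 0. It encodes a nuclear phosphatase that dephosphorylates the kinase ERK. Dusp5 had 13.5, 14.4, 15.7 and 13.5 CPM with TSP1, against 12.5, 11.1 and 8.56 CPM with PBS, with no overlap. The means were 14.3 ± 1.03 CPM with TSP1 (SD, n = 4) and 10.7 ± 1.99 CPM with PBS (SD, n = 3). The fitted fold was 1.33 (0.41 as log2 fold change with SE 0.13, edgeR adjusted p = 0.322), and the log2 fold change was 0.28 without PBS replicate 3. The exons of Dusp5 share 547 bases (22.1% of its exons) with an antisense gene, AC137853.2, for which no counts were found. How strand was treated in the counting is not stated, so reads of the 2 genes may mix. The highest Egr2, Dusp5 and Tiparp values were all in TSP1 replicate 3, the library with the high blood markers, and without it their log2 fold changes were 0.43, 0.36 and 0.26. The part of blood in these values was not tested.

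The other phosphatases had wider errors or smaller fold changes, and their difference from Dusp5 was not tested. Dusp1, a nuclear phosphatase for the kinases p38 and JNK as well as ERK, had 30.9, 37.7, 44.8 and 42.6 CPM with TSP1, against 24.7, 38.7 and 31.7 CPM with PBS (0.31 as log2 fold change with SE 0.17, edgeR adjusted p = 0.624). Dusp1 was 0.15 without PBS replicate 1 and 0.48 without PBS replicate 2, and its unadjusted p was under 0.05 in 5 of the 14 alternative analyses, DESeq2 and limma-voom among them. Dusp6, the cytoplasmic phosphatase of ERK, had 65.6, 66.4, 77.4 and 63.9 CPM with TSP1, against 57.1, 79.7 and 67.7 CPM with PBS (log2 fold change 0.005, SE 0.10). In Dusp14 the log2 fold change was -0.09 (SE 0.10). As with Nr4a1 and Egr1, PBS replicate 1 was the lowest PBS library in Dusp1 and Dusp6 and replicate 2 the highest.

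Of the kinases and signalling brakes, 3 of 7 (42.9%) had higher fitted values at an unadjusted p under 0.05, against 4.21% of all genes. Tiparp, an ADP-ribosyltransferase gene that the aryl hydrocarbon receptor induces, had 18.4, 19.4, 22.4 and 17.3 CPM with TSP1, against 16.3, 16.0 and 13.8 CPM with PBS. Its groups did not overlap, with means of 19.4 ± 2.18 CPM with TSP1 (SD, n = 4) and 15.4 ± 1.40 CPM with PBS (SD, n = 3). The fitted fold of Tiparp was 1.26 (0.33 as log2 fold change with SE 0.11, edgeR adjusted p = 0.329). Its exons share 223 bases with 4931440P22Rik on the opposite strand, which averaged 1.07 CPM with TSP1 and 0.909 CPM with PBS. Sik1, a salt-inducible kinase that holds back the CREB coactivators, had 18.1, 20.8, 20.4 and 20.8 CPM with TSP1, against 18.4, 16.4 and 13.0 CPM with PBS. TSP1 replicate 1 lay just below PBS replicate 1, and the others did not overlap (0.32 as log2 fold change with SE 0.11, edgeR adjusted p = 0.373). Without PBS replicate 3 it was 0.20. Trib1, a pseudokinase that directs proteins to degradation, had 33.1, 31.2, 29.7 and 34.2 CPM with TSP1, against 26.1, 32.2 and 24.1 CPM with PBS (0.22 as log2 fold change with SE 0.10, edgeR adjusted p = 0.492). It was 0.14 without PBS replicate 3, and its unadjusted p was not under 0.05 in 6 of the 14 alternative analyses. That count was 5 each for Fos, Nr4a1 and Klf10, 2 for Csrnp1 and 1 for Sik1. The kinase gene Plk2, which acts at overactive synapses, had a narrow range of 156 to 175 CPM with TSP1 and 161 to 167 CPM with PBS (log2 fold change 0.03, SE 0.06). Rgs2, a brake on G proteins, and Errfi1, a brake on the EGF receptor, lay at 0.04 (SE 0.07) and -0.004 (SE 0.09) on the same scale. Pim1, a survival kinase gene, had -0.36 (SE 0.29), with 1.32 CPM in TSP1 replicate 1 as the lowest of its values.

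The synaptic and secreted effectors had no shared direction. Arc had 259, 268, 272 and 315 CPM with TSP1, against 214, 334 and 207 CPM with PBS. PBS replicate 2 lay above and the other PBS libraries below all TSP1 libraries, and the log2 fold change was 0.15 (SE 0.18, edgeR adjusted p = 0.845). Without PBS replicate 2 it was 0.41, and without PBS replicate 3 it was 0.03. Homer1, a scaffold gene of the postsynaptic density, had 186, 204, 194 and 190 CPM with TSP1, against 187, 236 and 222 CPM with PBS (-0.15 as log2 fold change with SE 0.08, edgeR adjusted p = 0.560). Its log2 fold change was -0.24 without PBS replicate 1 and -0.22 with length and GC offsets, both with an unadjusted p under 0.05, and -0.07 without PBS replicate 2. The counts are per gene, so the short Homer1a transcript that activity induces could not be told from the long ones. Inhba, which encodes a subunit of the secreted factor activin A, had a log2 fold change of -0.01 (SE 0.19) at 5.01 to 6.35 CPM with TSP1 and 4.01 to 7.03 CPM with PBS.

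The nuclear regulators and growth arrest genes lay between -0.22 and 0.24 on the log2 scale. Btg2, an antiproliferative gene, had the highest of these log2 fold changes, 0.24 (SE 0.11, edgeR adjusted p = 0.530), and Ier5, a regulator of heat shock factor 1, the lowest, -0.22 (SE 0.12). Ier2, Midn, Gadd45b and Gadd45g had log2 fold changes of 0.06, -0.06, 0.08 and 0.06, each within 1 SE of 0. Gadd45b and Gadd45g encode stress sensors, of which Gadd45b is known for DNA demethylation at neuronal genes.

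The values of most of the 40 genes spread more within the PBS group than within the TSP1 group. The coefficient of variation was larger in PBS libraries for 27 of the 40 genes (67.5%), against 41.2% of all genes. Its median over the 40 genes was 10.1% in TSP1 libraries and 16.3% in PBS libraries, and over all genes 10.2% in TSP1 libraries and 8.72% in PBS libraries. No test was made of this difference. Within groups the median SD of log2 CPM was 0.18 over the 40 genes and 0.15 over all tested genes. PBS replicate 2 held the highest value of 12 of the 40 genes (30%), against 13.7% of all genes tested. TSP1 replicate 4 held the highest value of 11 (27.5%, against 18.5% of all genes). It is the library with high striatal and oligodendrocyte markers, and the part of that tissue in these values was not tested. TSP1 replicate 1 held the highest value of 0 of the 40 genes and the lowest value of 10 (25%), against 21% and 20.6% of all genes. PBS replicate 1 held the lowest value of 11 (27.5%, against 15% of all genes), among them Fos, Junb, Egr1, Egr2, Nr4a1, Npas4 and Dusp1. Excitatory neuron markers also differed within the PBS group, with a mean log2 CPM of -0.15, 0.18 and 0.05 in PBS replicates 1 to 3 relative to the mean of all libraries, and their part in these values was not tested. Without PBS replicate 2, 12 of the 40 genes (30%) were higher with TSP1 at an unadjusted p under 0.05, against 3.63% of all genes. Without PBS replicate 1, 8 (20%) were higher and 5 (12.5%) lower, against 3.68% and 4.87% of all genes. Without TSP1 replicate 2, 8 (20%) were higher and 3 (7.5%) lower, against 4.72% and 5.88% of all genes.

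**Figure D5:**
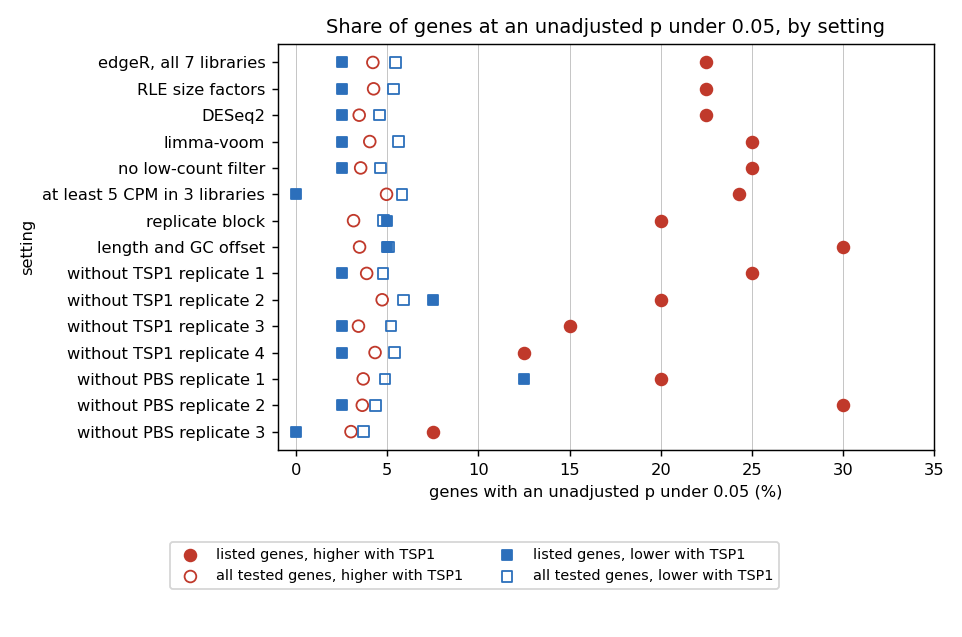
Share of genes at an unadjusted p under 0.05 under each analysis, for the 40 listed genes (filled) and all tested genes (open), higher (red circles) and lower (blue squares) with TSP1. The share of listed genes that were higher ran from 7.5% without PBS replicate 3 to 30% without PBS replicate 2 or with length and GC offsets.

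Promoters of 32 of the 40 genes were matched by symbol in RefSeq sequence (GRCm38.p6), with 45 start sites in all. The search does not cover Egr1, Egr3, Arc, Crem, Ier2, Klf10, Sik1 and Trib1, of which Klf10, Sik1 and Trib1 were among the 9 higher genes. The 250 bases before each start were searched on both strands for the CREB site (CRE, TGACGTCA) and its half-site (CGTCA), the AP-1 site (TGANTCA), the Egr site (GCGTGGGCG) and the CArG box that SRF binds. A CRE holds 2 half-sites that overlap. The half-site was found in 21 of the 32 genes (65.6%), against 19.8% of all 27025 genes with a promoter sequence, and the full CRE in 5 (15.6%, against 1.77%). Within these 250 bases, CArG boxes were found in Egr2 and Dusp5 only (6.25% of the genes, against 1.62%). An AP-1 site was found in Csrnp1 (3.12%, against 7.82%) and an Egr site in Maff (3.12%, against 0.622%). Bases further upstream were not searched, so a gene without a match here may hold such a site there. A match describes the letters and is not a site shown to be bound.

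The promoters of Egr2, Dusp5, Fos and Nr4a1 are shown from among the 9 genes higher with TSP1 at an unadjusted p under 0.05. That of Dusp1 is shown because it holds a full CRE. Csrnp1 and Tiparp, also among the 9, had promoter sequence and are not shown. Csrnp1 has a half-site and an AP-1 site, and Tiparp has none of the motifs searched. Each stretch shown runs 5′ to 3′ on the strand of the gene. It ends at the base before the start site, or before the first base that GENCODE gives to an exon of the gene. Capitals mark CREs, half-sites and CArG boxes. Egr2 has 5 RefSeq start sites, and the one shown was picked because it has the most matches. Distances are from the RefSeq start, which lies 2394 bases from GENCODE's gene start for Egr2, 12577 for Nr4a1 and 53656 for Dusp1. The stretches lie at chr10:67537619-67537868 on the plus strand (Egr2), chr19:53528895-53529108 on the plus strand (Dusp5), chr12:85473640-85473889 on the plus strand (Fos), chr15:101266596-101266845 on the plus strand (Nr4a1) and chr17:26508520-26508722 on the minus strand (Dusp1).
Egr2: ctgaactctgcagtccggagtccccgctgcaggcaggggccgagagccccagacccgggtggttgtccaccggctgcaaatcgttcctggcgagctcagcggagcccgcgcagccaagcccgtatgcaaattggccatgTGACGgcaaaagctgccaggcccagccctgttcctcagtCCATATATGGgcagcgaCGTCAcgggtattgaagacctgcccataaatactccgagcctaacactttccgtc
Dusp5: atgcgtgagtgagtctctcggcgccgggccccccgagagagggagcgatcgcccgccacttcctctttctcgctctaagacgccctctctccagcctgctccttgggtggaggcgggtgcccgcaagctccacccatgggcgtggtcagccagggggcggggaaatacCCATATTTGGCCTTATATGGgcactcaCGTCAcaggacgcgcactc
Fos: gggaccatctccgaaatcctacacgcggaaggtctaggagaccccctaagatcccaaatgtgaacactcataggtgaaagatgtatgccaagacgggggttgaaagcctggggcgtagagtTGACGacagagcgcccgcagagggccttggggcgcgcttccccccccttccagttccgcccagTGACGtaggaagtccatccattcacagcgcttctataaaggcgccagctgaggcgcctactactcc
Nr4a1: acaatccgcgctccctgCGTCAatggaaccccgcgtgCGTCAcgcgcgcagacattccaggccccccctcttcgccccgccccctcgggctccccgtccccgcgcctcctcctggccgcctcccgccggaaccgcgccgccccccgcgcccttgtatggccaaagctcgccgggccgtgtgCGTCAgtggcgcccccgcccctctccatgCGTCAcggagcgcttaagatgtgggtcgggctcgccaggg
Dusp1: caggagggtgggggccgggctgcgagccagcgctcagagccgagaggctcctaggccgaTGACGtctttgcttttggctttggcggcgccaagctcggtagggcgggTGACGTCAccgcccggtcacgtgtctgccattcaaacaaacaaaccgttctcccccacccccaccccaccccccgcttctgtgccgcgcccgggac

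CArG boxes were found before 4 of the 5 Egr2 start sites. In the Egr2 stretch shown, the CArG box starts 72 bases before the start site, between half-sites that start 111 and 55 bases before it. In Dusp5, CArG boxes start 82 and 72 bases before the start, side by side, and a half-site starts 55 bases before it, as in Egr2. The Dusp5 stretch lies over an exon of the antisense gene AC137853.2. Fos has half-sites 129 and 66 bases before the start, and Nr4a1 has them at 233, 213, 69 and 40 bases. Dusp1 has a full CRE 143 bases and a further half-site 191 bases before the start.

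Genes that stand before these in the pathway differed little. The 26 upstream activators were kinases, the phosphatase gene Ppp3ca, and the CREB, SRF and Mef2 factors with their partners and coactivators. Of the 26 genes 13 had fitted values above 0 and 13 below (median log2 fold change 0.00). Only 1 (3.85%) had an unadjusted p under 0.05, against 9.65% of all genes. This was Srf, the factor of the CArG box, with 73.4, 84.2, 76.1 and 66.3 CPM with TSP1, against 82.0, 90.3 and 82.1 CPM with PBS (-0.18 as log2 fold change with SE 0.08, edgeR adjusted p = 0.492). Rps6ka2, a kinase gene of the ERK pathway, had -0.21 (SE 0.10), and Creb1 had 49.3 to 53.0 CPM with TSP1 and 54.6 to 56.7 CPM with PBS without overlap (-0.10 as log2 fold change with SE 0.06, edgeR adjusted p = 0.634). TSP1 replicate 4, with its striatal markers, had the lowest Srf and Rps6ka2 values, and their log2 fold changes without it were -0.12 and -0.11. The part of striatal tissue in these values was not tested. The unadjusted p of Srf was not under 0.05 in 9 of the 14 alternative analyses, DESeq2 among them, and its log2 fold change was -0.07 with length and GC offsets. Of the 26 genes 1, Creb1, was lower without overlap and 1 higher (3.85% each), against 5.26% and 4.83% of all genes. The higher one was Camk2b, a subunit gene of the calcium-dependent kinase CaMKII, with 762 to 797 CPM with TSP1 and 735 to 739 CPM with PBS, named after its value was seen.

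Of 14 further early response genes 8 had fitted values above 0 and 6 below (median 0.03), and 2 (14.3%) had an unadjusted p under 0.05, in opposite directions, against 9.65% of all genes. Coq10b, a mitochondrial ubiquinone-binding protein gene, had 19.1 to 20.4 CPM with TSP1 and 15.7 to 19.0 CPM with PBS (0.23 as log2 fold change with SE 0.09, edgeR adjusted p = 0.447). Its unadjusted p was not under 0.05 without PBS replicate 1 or without PBS replicate 2. Ier3, a survival gene induced by NF-kB, had 6.07, 6.24, 5.60 and 4.85 CPM with TSP1, against 9.32, 6.33 and 8.62 CPM with PBS (-0.51 as log2 fold change with SE 0.16, edgeR adjusted p = 0.328). Its groups did not overlap, and its unadjusted p was under 0.05 in each of the 14 alternative analyses. In this list 1 gene, Coq10b, was higher without overlap and 1, Ier3, lower (7.14% each), against 4.83% and 5.26% of all genes. Zfp36, which degrades cytokine transcripts, had a log2 fold change of -0.36 (SE 0.18).

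The genes listed as late response genes mostly had lower fitted values with TSP1. They were grouped by name. The timing of their induction and its need for new protein were not measured here. Some of them, Ptgs2 and Nptx2 included, may therefore be immediate early genes by the definition given at the start. Of 11 genes 8 were below 0 (median -0.10), and 4 (36.4%) were lower at an unadjusted p under 0.05, against 5.44% of all genes. After adjustment none was called by edgeR. Ptgs2, the inducible prostaglandin synthase gene, had 12.7, 16.7, 17.1 and 14.2 CPM with TSP1, against 19.5, 24.5 and 20.6 CPM with PBS, with no overlap (-0.50 as log2 fold change with SE 0.12, edgeR adjusted p = 0.171). Bdnf, the neurotrophin gene that Npas4 and CREB regulate, had 27.1, 28.8, 26.9 and 24.0 CPM with TSP1, against 30.9, 29.3 and 33.5 CPM with PBS. Its groups did not overlap either (-0.22 as log2 fold change with SE 0.08, edgeR adjusted p = 0.409). Vgf, a neuropeptide precursor gene, had 248, 273, 224 and 225 CPM with TSP1, against 251, 302 and 288 CPM with PBS (-0.21 as log2 fold change with SE 0.08, edgeR adjusted p = 0.457). The fourth was Nptx2, a secreted pentraxin gene that gathers AMPA receptors, named after its value was seen, with 42.5 to 55.5 CPM with TSP1 and 57.3 to 59.8 CPM with PBS (log2 fold change -0.20, SE 0.08). Ptgs2 kept an unadjusted p under 0.05 in every alternative analysis, and the share of all genes that did so was not computed. The count of 4 was 2 without PBS replicate 2, without PBS replicate 3 and without TSP1 replicate 4, and also with the length and GC offsets or the replicate number as a block. No test was made of the difference between the early genes and this list, and the name of the list sets no order in time. The marker sums of microglia, endothelium and oligodendrocyte precursors and the mitochondrial share were also lower with TSP1, without overlap, and their part in the late gene values was not tested.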

How the data were processed

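The deposited table holds raw read counts per Ensembl gene for 7 libraries, judged as counts from its whole numbers and differing totals. Per the labels' protocols, 1.3 µg of total RNA entered a SMARTer mRNA library. The submitters' processing notes name GRCm38 and mm10. Aligner, counter, annotation and strand setting were not given in the sources used here. Each number that heads a count column is the one that begins a sample's description, which gave the match, and no batch is labelled. Libraries were treated as separate animals because the design text counts 7 mice. Symbols, coordinates (from 1) and exon lengths came from GENCODE M21 (GRCm38), to which 25375 of 25467 genes matched by identifier without version.

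edgeR 4.0.16 (R 4.3.3) was run on all genes with filterByExpr, TMM and a robust quasi-likelihood fit of group alone, two-sided, with Benjamini-Hochberg adjustment over the 17211 genes tested. Log2 fold changes are TSP1 over PBS, and each SE was derived from the fold change and its F statistic (absolute value divided by the root of F). CPM use TMM scaling, and relative log2 CPM a prior count of 2. The median SE was 0.11 over all genes, and libraries of a group differed by more than counting error (chi-square per degree of freedom 4.26 to 14.7). The scripts were tested on simulated counts. Alternatives were RLE size factors, DESeq2 1.42.0, limma-voom 3.58.1, no filter, a stricter filter (5 CPM or more in at least 3 libraries), a block for replicate number, length and GC offsets (natural splines with 4 degrees of freedom) and leaving out each library.

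The members and gene lists were chosen with earlier results of these data known. Values were given in full for Fos, Fosb, Junb, Jun, Egr1, Egr2, Egr4, Npas4, Nr4a1, Arc, Homer1, Dusp1 and Dusp6, for every other member with an unadjusted p under 0.05 or groups without overlap, and for up to 3 genes of smallest p in each further list.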

Additional observations from a re-analysis of the deposited data

Results flagged for a closer look

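Within the TSP1 group of 4 libraries, 24 sets of values (21 genes and 3 class means) were examined for a library far from the rest by Dixon's test, which chance passes in about 1 of 20 groups, and 2 sets passed. For Nr4a1, TSP1 replicate 3 had 142 CPM, against 151, 152 and 151 CPM in the other TSP1 libraries. For Sik1, TSP1 replicate 1 had 18.1 CPM, against 20.8, 20.4 and 20.8 CPM in the others. Groups of 3 libraries were not examined in this way.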

How the results depend on the processing

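The direction held in every alternative for 16 of the 21 genes given in full, and none of the 292 alternative values of these genes was called after adjustment. The genes near 0 turned sign. Egr1 was 0.016 with limma-voom and 0.022 with the length and GC offset, and Jun was -0.020 with the replicate block. With single libraries left out, Egr1 ran from -0.18 to 0.21, Jun from -0.081 to 0.155, Egr4 from -0.074 to 0.117, Dusp6 from -0.11 to 0.14 and Npas4 from -0.59 to 0.12. The causes were not tested.

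Calls among all genes at an adjusted p under 0.05 were 86 with DESeq2 and 19 without a filter, against 0 with edgeR on all 7 libraries, and 0 to 9 with single libraries left out (9 without PBS replicate 3). With single libraries left out, members at an unadjusted p under 0.05 numbered 3 to 12 higher (7.5% to 30%) and 0 to 5 lower (0% to 12.5%). The shares of all genes were 3.01% to 4.72% higher and 3.7% to 5.88% lower. Lower members numbered 0 with the filter of 5 CPM, which removed Atf3, against 5.8% of all genes. They numbered 2 (5%) with the replicate block and 2 (5%) with the length and GC offset, against 4.78% and 5.08% of all genes. Correlations of deviations between libraries of equal number were -0.26, -0.03 and 0.01, so the numbers are not taken as pairs. With the replicate block 8 members (20%) were higher, against 3.15% of all genes, and TSP1 replicate 4 (which has no PBS partner) did not weigh in. These 8 members were 7 of the 9 higher members, without Klf10 and Trib1, and Dusp1, which was not among the 9.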
